A study of Mus musculus with 30 samples.

Results

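The comparison described here is that of whole retinas from aged mice after 12 months on a high glycemic index (HGI) or a low glycemic index (LGI) diet. Its members are the 8 retinal RNA-seq libraries of those 2 groups, 4 HGI and 4 LGI, out of 30 libraries in the series, and all 15054 genes that passed the limit on low expression. The mice were wild-type (WT) C57BL/6J males that began the diets at 12 months of age and were collected at 24 months of age. The starch of the HGI diet was 100% amylopectin, which is digested quickly, and that of the LGI diet was 70% amylose with 30% amylopectin, which is digested more slowly. The diets were otherwise isocaloric, and all mice were individually housed, pair-fed so that both groups ate equal amounts, and fasted for some hours before collection. The retina set also holds 4 HGI and 4 LGI retinas collected at 7 months of age after 1 month of feeding, which began at 6 months. They came from another cohort, so age, length of feeding and cohort cannot be told apart between the 2 time points. The replicate numbers, 17 to 20 for HGI and 21 to 24 for LGI, name single retinal samples, all from males, so nothing is known here of females.

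The retina is a layered neural tissue in which rod and cone photoreceptors turn light into electrical signals, which bipolar, horizontal, amacrine and ganglion cells process, while Müller glia and microglia support and survey them. Photoreceptors use glucose at a high rate, both by glycolysis to lactate and by oxidative phosphorylation in mitochondria packed into the inner segment. The respiratory chain that carries out the latter is built from proteins encoded partly by the mitochondrial genome and partly by nuclear genes. In whole-retina RNA, fewer cells of a type and less RNA per cell cannot be told apart.

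The deposited estimated counts summed to between 23270000 and 34140000 per HGI library and between 19450000 and 22510000 per LGI library, so every HGI library was deeper than any LGI library. Transcripts annotated as retaining an intron took 2.68%, 2.97%, 2.77% and 3.15% of the counts in HGI replicates 17 to 20 and 3.07%, 3.55%, 3.39% and 4.24% in LGI replicates 21 to 24. The means were 2.89% ± 0.207 and 3.56% ± 0.493 (SD, n = 4 each), with p = 0.0571 in a two-sided exact permutation test and 0.171 after adjustment over 3 library measures, where the smallest p that 4 against 4 allows is 0.0286. A first principal component over the 8 libraries carried 42.5% of their variance and set HGI replicates 18 and 19 and LGI replicate 24 apart from the other 5, so the strongest axis ran within the groups and not between them. The second component, with 22.3% of the variance, had all 4 HGI libraries below 0 and all 4 LGI libraries above 0, with HGI replicate 20 (-0.331) and LGI replicate 23 (0.588) close to each other. Genes of rod phototransduction and of the outer segment took 7.63% to 8.21% of the counts in the HGI retinas and 6.59% to 8.65% in the LGI retinas. Rod genes were thus abundant in every library.

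After 12 months of feeding, 646 of the 15054 genes tested, or 4.29%, passed the limits used for retina in the study, an unadjusted p below 0.05 in the limma-voom test and a level at least 25% above that of the other diet. Of these, 354 (2.35% of genes tested) were higher and 292 (1.94%) lower in HGI retinas. Of all genes tested, 47.5% had a log2 fold change above 0. None passed an adjusted p of 0.05, the smallest Benjamini-Hochberg adjusted p in limma-voom being 0.607. At an unadjusted p below 0.05 there were 1167 genes (7.75%) in limma-voom, 1237 in edgeR and 1306 in DESeq2, and after adjustment edgeR called 0 genes and DESeq2 called 9. In what follows, a gene called higher or lower passed the limits without adjustment. Counts in gene lists are to be read beside the shares of all genes tested, 2.35% higher and 1.94% lower. The differences were small, with a median size of 1.35-fold among the 646 genes, and the groups did not overlap for 253 of them, 108 higher and 145 lower. Over all genes tested the groups did not overlap for 795 (5.28%), 350 (2.32%) higher and 445 (2.96%) lower. The count rested in part on single libraries. It was 342 without HGI replicate 19, 386 without LGI replicate 22 and 1113 without HGI replicate 20, and 167 genes passed in each of the 8 fits that left a 12-month library out.

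**Figure D1:**
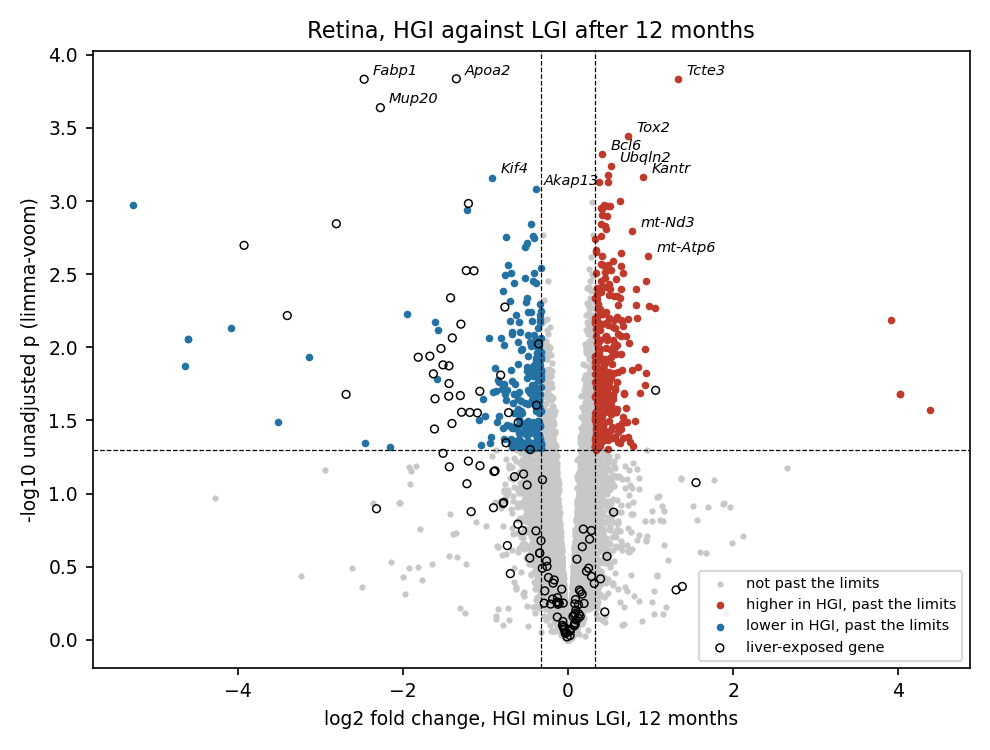
Each point is 1 of 15054 genes, plotted by its log2 fold change (HGI minus LGI after 12 months) and by the -log10 of its unadjusted limma-voom p. Dashed lines mark the limits on p and fold change, open circles mark genes far more abundant in liver than in retina, and these fill much of the far left, where 29 of the 46 genes at least 2-fold lower in HGI were of that kind.

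Among annotated genes whose HGI and LGI libraries did not overlap, those with the smallest p on the higher side included regulators of transcription and chromatin. Levels are given in CPM, a gene's count scaled to a common library size. Tox2, a member of the TOX family of DNA-binding proteins, was at 41.1, 33.5, 34.6 and 25.4 CPM in HGI replicates 17 to 20 and at 22.3, 19.5, 18.5 and 19.3 CPM in the LGI replicates. Every HGI retina lay above every LGI retina, and the fold change was 1.66 (log2 0.73, SE 0.16, adjusted p = 0.607 in limma-voom). Bcl6, a transcriptional repressor known from B cells and from neurogenesis, measured 17.3, 17.6, 20.05 and 19.05 CPM in HGI against 15.8, 12.7, 13.7 and 13.5 CPM in LGI. Its difference was 1.33-fold (log2 0.41, SE 0.09), and the lowest HGI and highest LGI libraries were close. H3f3b, which encodes the replication-independent histone variant H3.3, stood at 1028, 979.9, 1061 and 840 CPM in HGI and 738, 656, 633 and 772 CPM in LGI, a 1.40-fold difference (log2 0.48, SE 0.11). Anp32e, a chaperone that removes the histone variant H2A.Z, was 1.30-fold higher (log2 0.38, SE 0.09), from 731 to 933 CPM in HGI and from 622 to 721 CPM in LGI. Kantr, a transcript next to Kdm5c, reached 35.5, 37.65, 37.8 and 24.4 CPM in HGI against 20.1, 15.1, 14.8 and 21.0 CPM in LGI (1.88-fold, log2 0.91, SE 0.22), with HGI replicate 20 well below the other HGI retinas. H3f3b belongs to a family with near-identical copies and pseudogenes, among which estimated counts can be split.

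The remaining genes of that set served protein turnover, acid transport and signaling. Ubqln2, a ubiquilin that brings ubiquitinated proteins to the proteasome, measured 130.2, 130.2, 135 and 101 CPM in HGI and 93.1, 75.2, 83.1 and 94.2 CPM in LGI. The groups were separate, with HGI replicate 20 nearest to LGI, and the fold change was 1.43 (log2 0.52, SE 0.12). Atp6v1g1, a subunit of the vacuolar ATPase that acidifies lysosomes and synaptic vesicles, was 1.40-fold higher (log2 0.48, SE 0.12), at 127 to 174 CPM in HGI and 98.5 to 127 CPM in LGI, so that the lowest HGI and the highest LGI library nearly met. It was the 1 of 26 lysosome and V-ATPase genes to pass, in a list with a median of 0.036. Gng10, a G protein gamma subunit, was 1.54-fold higher at 10.02 to 13.8 CPM in HGI and 7.21 to 8.46 CPM in LGI. Crim1, a transmembrane protein that binds bone morphogenetic proteins, was 1.36-fold higher at 38.7 to 52.6 CPM in HGI and 28.8 to 38.0 CPM in LGI. The smallest p on the higher side belonged to Tcte3, a dynein light chain gene, at 1.96, 1.32, 2.40 and 1.24 CPM in HGI and 0.490, 0.779, 0.497 and 0.878 CPM in LGI (2.51-fold, log2 1.33, SE 0.27), but it is expressed near the limit of 1 CPM and has near-identical neighboring copies, so its counts are uncertain. By size among genes of at least 10 CPM, BC065403, an antisense transcript (1.97-fold), Hmgb2, a chromatin protein (1.59-fold), and Dcaf12l1, a WD-repeat protein (1.56-fold), joined Kantr and Tox2. Hmgb2 measured 69.7, 69.7, 66.9 and 53.9 CPM in HGI and 47.1, 34.2, 35.3 and 48.4 CPM in LGI, with no overlap.

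**Figure D2:**
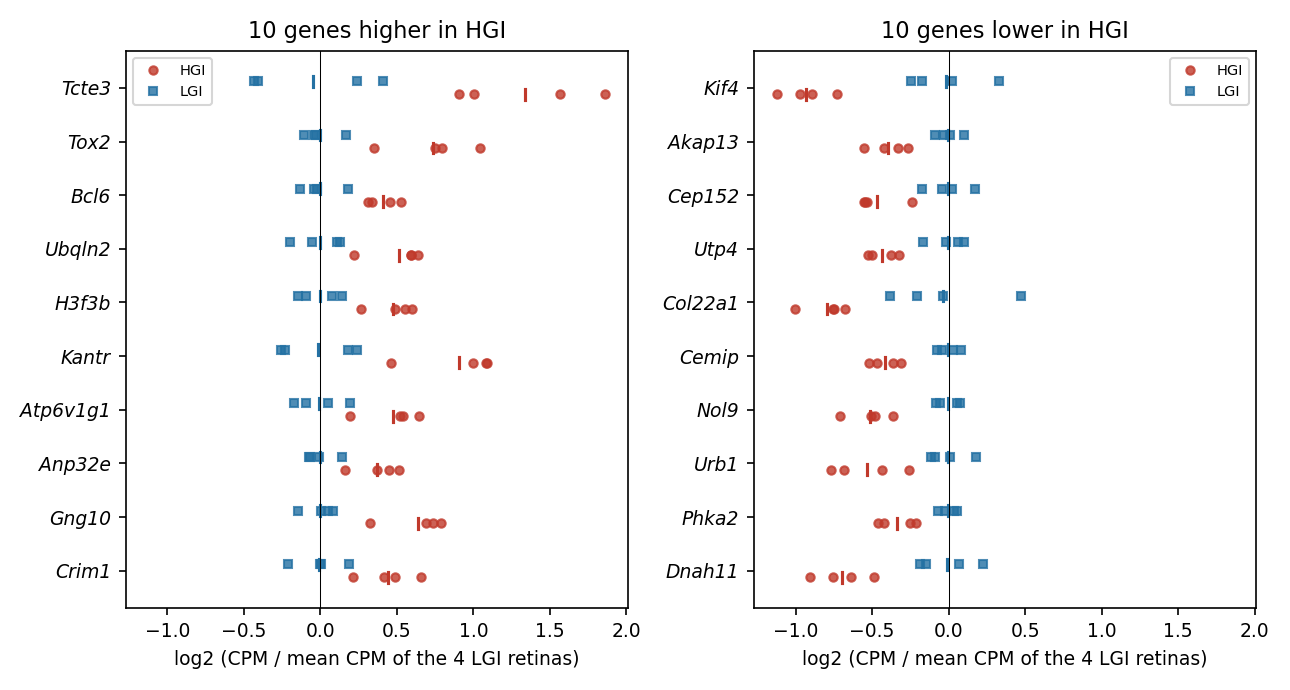
CPM in each retina as log2 of its ratio to the mean of the 4 LGI retinas, for the 10 higher and 10 lower genes with the smallest p among those whose groups did not overlap (circles, HGI; squares, LGI; short bars, group means). The genes were chosen for that separation, and the plot shows how HGI replicate 20 lay nearest to LGI for Ubqln2, Kantr and Tox2, at 101, 24.4 and 25.4 CPM.

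On the lower side, the set combined genes of cell division, signaling scaffolds, matrix and the making of ribosomes. Kif4, a kinesin motor that acts on mitotic chromosomes, was at 3.70, 4.36, 3.89 and 3.32 CPM in HGI replicates 17 to 20 and at 6.42, 9.10, 7.34 and 6.10 CPM in LGI. It was 1.89-fold lower (log2 -0.92, SE 0.22), and it was lower in HGI at 1 month too, by log2 -0.55. Cep152, a centriole duplication protein, was 1.37-fold lower, at 7.42 to 9.20 CPM in HGI and 9.65 to 12.25 CPM in LGI. Akap13, a scaffold for protein kinase A, measured 32.2, 37.5, 35.3 and 39.2 CPM in HGI and 44.3, 46.3, 47.6 and 50.6 CPM in LGI (1.31-fold lower, log2 -0.39, SE 0.09), without overlap. Phka2, a regulatory subunit of the glycogen-mobilizing phosphorylase kinase, was 1.26-fold lower at 21.8 to 25.9 CPM in HGI and 28.7 to 31.1 CPM in LGI. Cemip, which degrades hyaluronan, stood at 9.14, 8.80, 9.82 and 10.2 CPM in HGI and 12.0, 12.9, 13.4 and 12.3 CPM in LGI (1.33-fold lower, log2 -0.41, SE 0.11). Col22a1, a collagen, and Dnah11, an axonemal dynein heavy chain, were low in abundance, with HGI means of 1.33 and 2.28 CPM and LGI means of 2.30 and 3.67 CPM. By size, Zfp568, a zinc-finger repressor (1.58-fold lower), Pprc1, a coactivator related to PGC-1alpha that acts on mitochondrial biogenesis genes (1.49-fold), Pcsk7, a proprotein convertase (1.48-fold), and Rad52, a DNA repair protein (1.43-fold), stood out with Urb1. Of these, Pcsk7 had an unadjusted p below 0.05 in 5 of the 8 fits without a library.

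Utp4, Nol9 and Urb1 of that lower set all act in the assembly of ribosomes, Utp4 in the processing of the small-subunit RNA, and Nol9 and Urb1 in that of the large subunit. Utp4 measured 22.6, 24.96, 22.9 and 25.9 CPM in HGI and 28.9, 33.9, 32.1 and 34.8 CPM in LGI (1.34-fold lower, log2 -0.42, SE 0.11). Nol9 was at 14.7, 14.9, 12.8 and 16.2 CPM in HGI and 20.0, 21.7, 19.7 and 22.0 CPM in LGI (1.42-fold lower), and Urb1 at 9.80, 11.6, 9.235 and 13.1 CPM in HGI and 14.5, 14.8, 15.8 and 17.8 CPM in LGI (1.43-fold lower). In none of the 3 did the groups overlap, which was a condition for entering that set. A list of 100 ribosome biogenesis factors was then written from general knowledge, after these values had been seen, so it is a description only. Of its members, 18 were lower past the limits and 0 higher, beside 1.94% lower among all genes. The 18 count Utp4, Nol9 and Urb1 themselves, which were known to be lower when the list was written. In all, 90 of 100 had a log2 fold change below 0, with a median of -0.198 beside -0.0121 over all genes tested. The 18 also included Heatr1 (1.36-fold lower), which drives transcription by RNA polymerase I, and Polr1b (1.35-fold), a core subunit of that polymerase. Mdn1 (1.34-fold), the giant ATPase that remodels the large subunit precursor, was another. Polr1b stood at 14.1, 15.8, 12.6 and 16.8 CPM in HGI and 18.3, 21.2, 22.4 and 18.4 CPM in LGI, without overlap. The list held 10 lower members without HGI replicate 19, 11 without LGI replicate 22 and 17 with the trend over transcript GC content removed. After 1 month, 74 of the 100 had a log2 fold change above 0, beside 56% of all genes, with a median of 0.0788 and none past the limits. The 80 cytosolic ribosomal protein genes tested, which encode the finished ribosome's proteins, had no member past the limits at 12 months and a median of 0.0146.

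All 13 protein-coding genes of the mitochondrial genome, which supply core subunits to respiratory complexes I, III, IV and V, had higher fitted levels in HGI than in LGI retinas after 12 months. Of them, 8 passed the limits, with a list median of log2 0.453, beside 2.35% higher past the limits and a median of -0.0121 among all genes. The largest difference was that of mt-Atp6, a subunit of the ATP synthase, at 6517, 7311, 6591 and 3543 CPM in HGI replicates 17 to 20 and 3443, 2413, 2036 and 4474 CPM in LGI replicates 21 to 24 (1.96-fold, log2 0.97, SE 0.27, adjusted p = 0.607 in limma-voom). HGI replicates 17 to 19 lay above every LGI retina, whereas replicate 20 lay below LGI replicate 24. The pattern was alike for mt-Atp8, which shares its transcript with mt-Atp6 and reached 1690, 2195, 2066 and 1092 CPM in HGI against 963, 639, 709 and 1411 CPM in LGI (1.93-fold, log2 0.94, SE 0.28).

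Complex I subunits followed. The value of mt-Nd3 was 1851, 2312, 2022 and 1212 CPM in HGI and 1101, 917, 968 and 1251 CPM in LGI (1.72-fold, log2 0.78, SE 0.20), again with HGI replicate 20 inside the LGI range. The differences of mt-Nd2 (log2 0.55), mt-Nd4 (0.45), mt-Nd1 (0.42) and mt-Nd5 (0.38) were smaller and also passed the limits, as did mt-Co3 of complex IV (0.51). The other 5 did not pass. Their log2 fold changes were 0.46 for mt-Nd6, 0.42 for mt-Co2, 0.26 for mt-Co1, 0.24 for mt-Nd4l and 0.23 for mt-Cytb. The most abundant, mt-Co1, measured 26876, 33166, 33415 and 24343 CPM in HGI and 23920, 23051, 21566 and 29638 CPM in LGI. For none of the 13 did the groups separate fully. In sum the 13 genes took 8.99%, 10.6%, 10.1% and 7.62% of the counts in HGI replicates 17 to 20 and 7.59%, 6.89%, 6.63% and 9.004% in LGI replicates 21 to 24.

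How many of the 13 passed depended on single libraries. Leaving out 1 library at a time gave 4 to 11 genes past the limits, 4 without HGI replicate 18 and 5 without replicate 19, with all 13 log2 fold changes above 0 in each fit and medians from 0.35 to 0.614. HGI replicates 18 and 19 and LGI replicate 24, which the first principal component set apart, held the largest summed shares (10.6%, 10.1% and 9.004%). HGI replicate 17 followed closely at 8.99%. What set these sums was not tested. With the trend over GC content removed, 5 genes passed and the median was 0.294. Transcripts of the mitochondrial genome are poor in G and C, with a median GC content of 37.1% over the 13 genes against 48.9% over all genes. After 1 month of feeding all 13 log2 fold changes were below 0, with a median of -0.271 and mt-Co2 alone past the limits (log2 -0.72). The difference between the 12-month and 1-month diet effects passed the limits for 9 of the 13, beside 5.73% of all genes in that direction, with the widest for mt-Atp6 (log2 1.51, adjusted p = 0.293 in limma-voom).

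**Figure D3:**
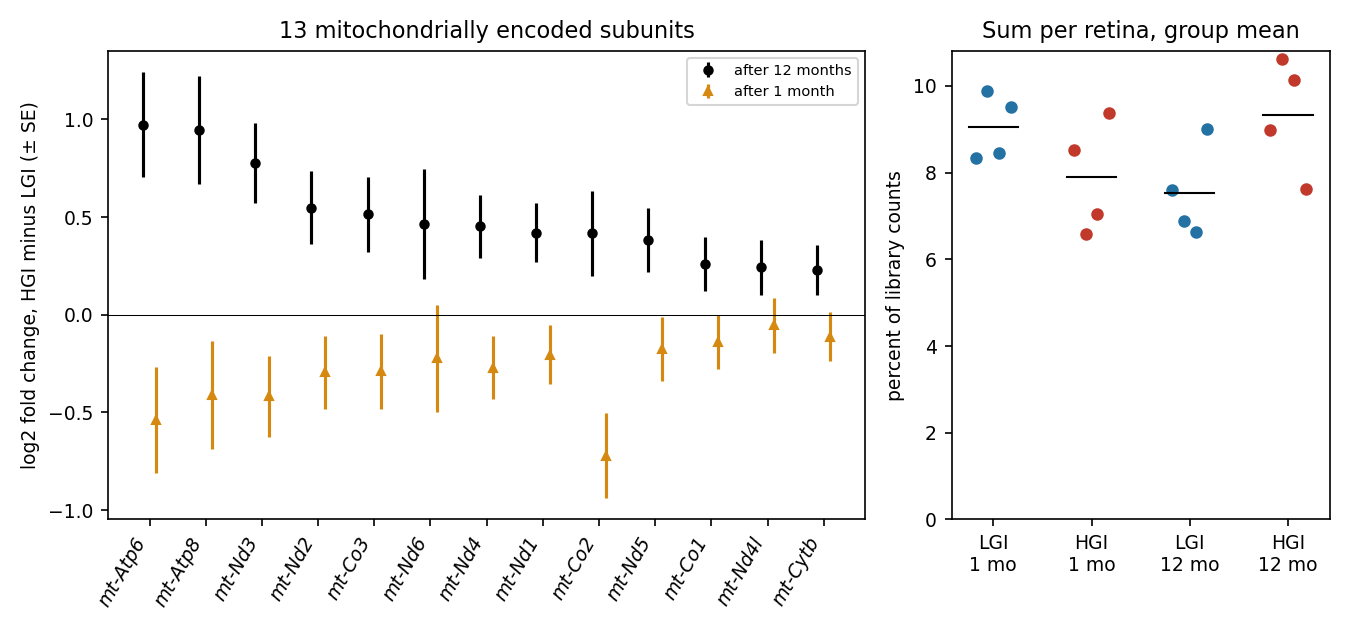
Left, log2 fold change of HGI minus LGI with its SE for the 13 mitochondrially encoded genes after 12 months (circles) and 1 month (triangles). Right, the sum of the 13 as a percent of each library's counts, with group means as bars. All 12-month values lie above 0 and all 1-month values below it, while the sums of single retinas overlap between the diets, with LGI replicate 24 at 9.004% above HGI replicates 17 and 20.

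Nuclear genes of the respiratory chain differed far less. Of the 36 nuclear complex I subunits tested, 0 passed the limits, and the median was 0.0421. Medians were 0.0585 for the 4 subunits of complex II, 0.0147 for 9 of complex III, 0.0484 for 12 of complex IV and 0.0443 for 16 of complex V. Each of these medians took both signs when single libraries were left out, from -0.0801 to 0.0736 for complex I and -0.159 to 0.084 for complex III. Summed CPM had a lower median in HGI for each complex, with overlapping ranges. For complex I the medians were 1889 CPM in HGI and 2056 CPM in LGI. Cox7c, a small subunit of complex IV, was the single member past the limits, at 47.2, 43.8, 33.8 and 37.2 CPM in HGI and 34.9, 34.2, 33.1 and 26.85 CPM in LGI (log2 0.32, SE 0.12). Its groups overlapped. In each complex the extremes were modest. Ndufc2 was the highest of complex I (log2 0.31, just under the fold limit) and Ndufa11 the lowest (-0.21), Sdha and Sdhc bounded complex II (0.12 and 0.04), Uqcrfs1 and Uqcr11 complex III (0.17 and -0.17), Cox6b1 was the lowest of complex IV (-0.05), and Atp5f1 and Atp5j2 bounded complex V (0.16 and -0.03). The signs of Ndufa11, Sdhc, Uqcr11, Cox6b1 and Atp5j2 turned under other settings. LGI replicate 24 held 1639 CPM of nuclear complex I transcripts in sum, below the 1784 to 2091 CPM of the other 7 retinas, while its mitochondrially encoded sum was the highest of the LGI group.

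Energy and lipid metabolism outside the respiratory chain gave few calls. None of the 26 tested genes of glycolysis and lactate handling passed, with a median of 0.00816, and the nearest was Pgk1, phosphoglycerate kinase (log2 0.26). Likewise 0 of 23 genes of pyruvate dehydrogenase and the TCA cycle, 0 of 16 genes of glucose response, polyol and hexosamine metabolism and 0 of 23 genes of cholesterol synthesis and uptake passed, with medians of 0.0163, -0.032 and -0.0395. Hmgcs1, which feeds sterol synthesis, passed the limit on p at log2 0.26 but not the fold limit. In the list for fatty acids, 1 of 27 passed. Scd1, the desaturase that makes monounsaturated fatty acids, measured 25.1, 29.1, 26.9 and 24.8 CPM in HGI and 38.0, 29.3, 31.3 and 37.2 CPM in LGI. It was 1.28-fold lower (log2 -0.36, SE 0.12), and HGI replicate 18 and LGI replicate 22 nearly met.

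In the list of mitochondrial biogenesis, dynamics and mitophagy, 2 of 22 were higher, where 2.35% of all genes tested were, and the count ran from 0 to 3 when single libraries were left out. Both are receptors that mark mitochondria for removal. Fundc1, on the outer membrane, was at 86.1, 87.8, 92.5 and 64.1 CPM in HGI and 65.6, 60.6, 59.97 and 67.2 CPM in LGI (1.29-fold, log2 0.37, SE 0.14). Bnip3, induced by hypoxia, ranged from 297 to 437 CPM in HGI and 240 to 322 CPM in LGI (1.29-fold, log2 0.37, SE 0.15). In both, HGI replicate 20 lay within the LGI range. The related Bnip3l had a log2 fold change of 0.31, short of the fold limit. The biogenesis regulators Ppargc1a (0.19), Tfam (0.08) and Nrf1 (-0.13) did not pass. Fundc1 was lower in HGI after 1 month (log2 -0.37).

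Photoreceptor genes were close between the diets. Of 25 rod genes 1 passed and of 12 cone genes 0, with medians of 0.0579 and 0.0107. The rod gene was Pdc, phosducin, which binds the beta and gamma subunits of transducin, at 3800, 5611, 5828 and 4021 CPM in HGI and 4117, 2757, 2683 and 3950 CPM in LGI (1.43-fold, log2 0.52, SE 0.18). HGI replicates 18 and 19 were above all LGI retinas and the other 2 HGI retinas were not. Gnb1, the transducin beta subunit, had a smaller value (log2 0.23), and Gnat1 (0.03) and Pde6b (0.07) were near 0. Arr3, cone arrestin, passed the limit on p at log2 -0.26 but not the fold limit. None of 17 ribbon synapse genes passed. In a list of inherited retinal disease genes, also written after values had been seen, 5 of 111 tested were lower and 0 higher, where 1.94% and 2.35% of all genes tested were, and the list median was 0.00815. Without single libraries, 4 or 5 members were lower and 0 to 4 higher. The lower genes included Adgrv1, a large adhesion receptor of the photoreceptor cilium, Pcare, a ciliary protein that shapes outer segment discs, Cerkl, a ceramide kinase-like protein, and Prpf3, a splicing factor. Adgrv1 was at 200.2, 299.9, 244 and 267 CPM in HGI and 311, 341, 331 and 374 CPM in LGI (1.35-fold lower, log2 -0.43, SE 0.14). Its groups were separate, although HGI replicate 18 came near to LGI. Pcare, Cerkl and Prpf3 were 1.38-, 1.28- and 1.27-fold lower.

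Inner retinal neurons gave 3 calls. Lhx1, a transcription factor of horizontal cells, measured 6.585, 5.80, 6.25 and 5.88 CPM in HGI and 5.585, 4.72, 4.52 and 4.76 CPM in LGI, without overlap (log2 0.32, SE 0.11). Calb1, the calcium-binding protein calbindin of horizontal and amacrine cells, was 1.27-fold higher at 107 to 147 CPM in HGI and 84.4 to 109 CPM in LGI. Pou4f2, the ganglion cell factor Brn3b, was at 12.8, 13.98, 15.3 and 10.7 CPM in HGI and 9.50, 7.98, 7.585 and 11.6 CPM in LGI (1.43-fold, log2 0.52, SE 0.18), with HGI replicate 20 below LGI replicate 24. They were 2 of 14 amacrine and horizontal markers and 1 of 12 ganglion cell markers, whose medians were 0.111 and 0.109. Among 13 bipolar markers 0 passed, and 2.35% of all genes tested were higher.

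Müller glia markers had 12 of 12 log2 fold changes above 0, with a median of 0.144 against -0.0121 over all genes, but 1 past the limits. This was Aqp4, the water channel of glial endfeet, at 239, 268, 306 and 216 CPM in HGI and 224, 181, 203 and 201 CPM in LGI (1.26-fold, log2 0.34, SE 0.15), where the ranges overlapped. Sox9, a glial transcription factor, passed the limit on p at log2 0.32 but fell just short of the fold limit, and Glul, glutamine synthetase, had 0.18. None of 13 genes of the glial stress response passed, and Gfap was at log2 0.00.

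Few genes of each immune list passed. Of 16 tested genes of microglia and antigen presentation, 15 had values above 0, with a median of 0.221. The one past the limits was P2ry12, the purinergic receptor of surveying microglia, at 6.81, 5.18, 6.43 and 5.71 CPM in HGI and 4.46, 3.80, 5.89 and 3.93 CPM in LGI (1.34-fold, log2 0.42, SE 0.18). LGI replicate 23 lay among the HGI values. C3ar1, the receptor for the complement fragment C3a, was 1.51-fold higher at 1.38 to 1.70 CPM in HGI and 0.633 to 1.41 CPM in LGI, and was the 1 of 23 complement and coagulation genes to pass. Of the interferon response list 1 of 21 passed. B2m, the light chain of class I molecules, was at 65.7, 53.9, 86.7 and 55.7 CPM in HGI and 49.9, 43.0, 50.9 and 43.3 CPM in LGI (1.37-fold, log2 0.46, SE 0.14), without overlap, and it was lower in HGI after 1 month (log2 -0.43). Ms4a1 and Jchain, made by B cells and plasma cells, were higher too, by 1.76-fold at HGI and LGI means of 1.00 and 0.565 CPM and by 1.28-fold at 14.7 and 11.6 CPM. Of 16 leukocyte markers 4 were tested, of which these 2 passed, where 2.35% of all genes tested were higher. Another of the 4 was lower, at log2 -0.859, and did not pass. The sums over the list ranged from 19.0 to 21.3 CPM in HGI and 14.3 to 23.2 CPM in LGI.

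In the list for TGF-beta and BMP signaling, 3 of 36 were higher and 1 lower, with a median of 0.161, where 2.35% of all genes tested were higher and 1.94% lower. Without single libraries, from 1 to 6 members were higher. The higher genes were 2 inhibitors of basic helix-loop-helix factors that BMP signals induce, Id2 and Id4, and Thbs1, thrombospondin 1, which can activate latent TGF-beta. Id2 was at 11.9, 12.1, 10.9 and 9.20 CPM in HGI and 8.52, 7.59, 9.16 and 8.18 CPM in LGI (1.30-fold, log2 0.38, SE 0.13), where HGI replicate 20 and LGI replicate 23 nearly met. Id4 was higher by log2 0.48 and Thbs1 by log2 0.58, both with overlapping groups. Chrd, chordin, a secreted antagonist that binds BMPs, was at 1.07, 1.05, 1.27 and 1.27 CPM in HGI and 2.25, 1.655, 1.82 and 2.31 CPM in LGI (1.71-fold lower, log2 -0.77, SE 0.26). No LGI retina was as low as an HGI retina. The receptors and Smads of the pathway, from Tgfbr1 (0.15) and Bmpr2 (0.30) to Smad3 (0.00) and Smad4 (0.04), did not pass.

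Of 27 calcium signaling genes, 1 was higher and 2 lower, where 2.35% of all genes tested were higher and 1.94% lower. Calm2, a calmodulin gene, measured 733, 757, 805 and 606 CPM in HGI and 602, 532, 531 and 583 CPM in LGI (1.29-fold, log2 0.36, SE 0.11), with HGI replicate 20 and LGI replicate 21 almost level. Ryr2 and Ryr3, ryanodine receptors that release calcium from the endoplasmic reticulum, were both 1.28-fold lower, Ryr2 from 67.0 to 86.3 CPM in HGI and 85.7 to 126 CPM in LGI, and Ryr3 from 20.8 to 25.1 CPM in HGI and 26.0 to 40.4 CPM in LGI. LGI replicate 24 was the highest for each.

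Extracellular matrix genes had 1 of 23 higher and 1 lower, where 2.35% of all genes tested were higher and 1.94% lower. Col4a3, a basement membrane collagen, was at 182, 183, 183 and 169 CPM in HGI and 156, 129, 122 and 162 CPM in LGI (1.27-fold, log2 0.34, SE 0.11), and Col5a1, a fibrillar collagen, was 1.49-fold lower at means of 1.97 and 2.98 CPM. Among stress and timing genes, Atf3, a stress-induced transcription factor, was at 11.1, 9.93, 9.96 and 11.7 CPM in HGI and 12.25, 17.1, 15.4 and 11.8 CPM in LGI (1.31-fold lower), and Ciart, a repressor of the circadian clock, was 1.31-fold lower at 6.85 to 9.80 CPM in HGI and 9.93 to 13.1 CPM in LGI. These were 1 of 19 heat shock and unfolded protein genes and 1 of 19 clock genes. Of 17 immediate early genes, which neurons switch on within minutes of activity, 2 were lower, where 1.94% of all genes tested were, and from 0 to 3 were lower when single libraries were left out. Fosl2 stood at 7.25, 3.62, 5.48 and 6.95 CPM in HGI and 7.54, 10.1, 10.5 and 10.998 CPM in LGI (1.71-fold lower, log2 -0.77, SE 0.29), Npas4 at means of 1.07 and 1.54 CPM (1.43-fold lower), and Fos did not differ past the limits (log2 0.11).

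Several of these list members depended on 1 library or another. In at least 4 of the 8 fits that left out a library, the unadjusted p was 0.05 or above for mt-Nd5, mt-Co3, Bnip3, Calb1, Aqp4, P2ry12, Ms4a1, Jchain and Npas4. It was so in 3 fits for Id4, Thbs1 and Col5a1, and in 1 or 2 fits for mt-Nd1, mt-Nd4, Mdn1, Cox7c, Fundc1, Pdc, Cerkl, C3ar1, Ryr2, Ryr3, Ciart and Fosl2. Among the other ribosome biogenesis genes past the limits, it was so in 6 fits for Wdr74 and Ddx55, 5 for Pdcd11 and 4 for Pwp2. For Ftsj3 it was so in 3, for Wdr46 in 2 and for Taf1a in 1.

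**Figure D4:**
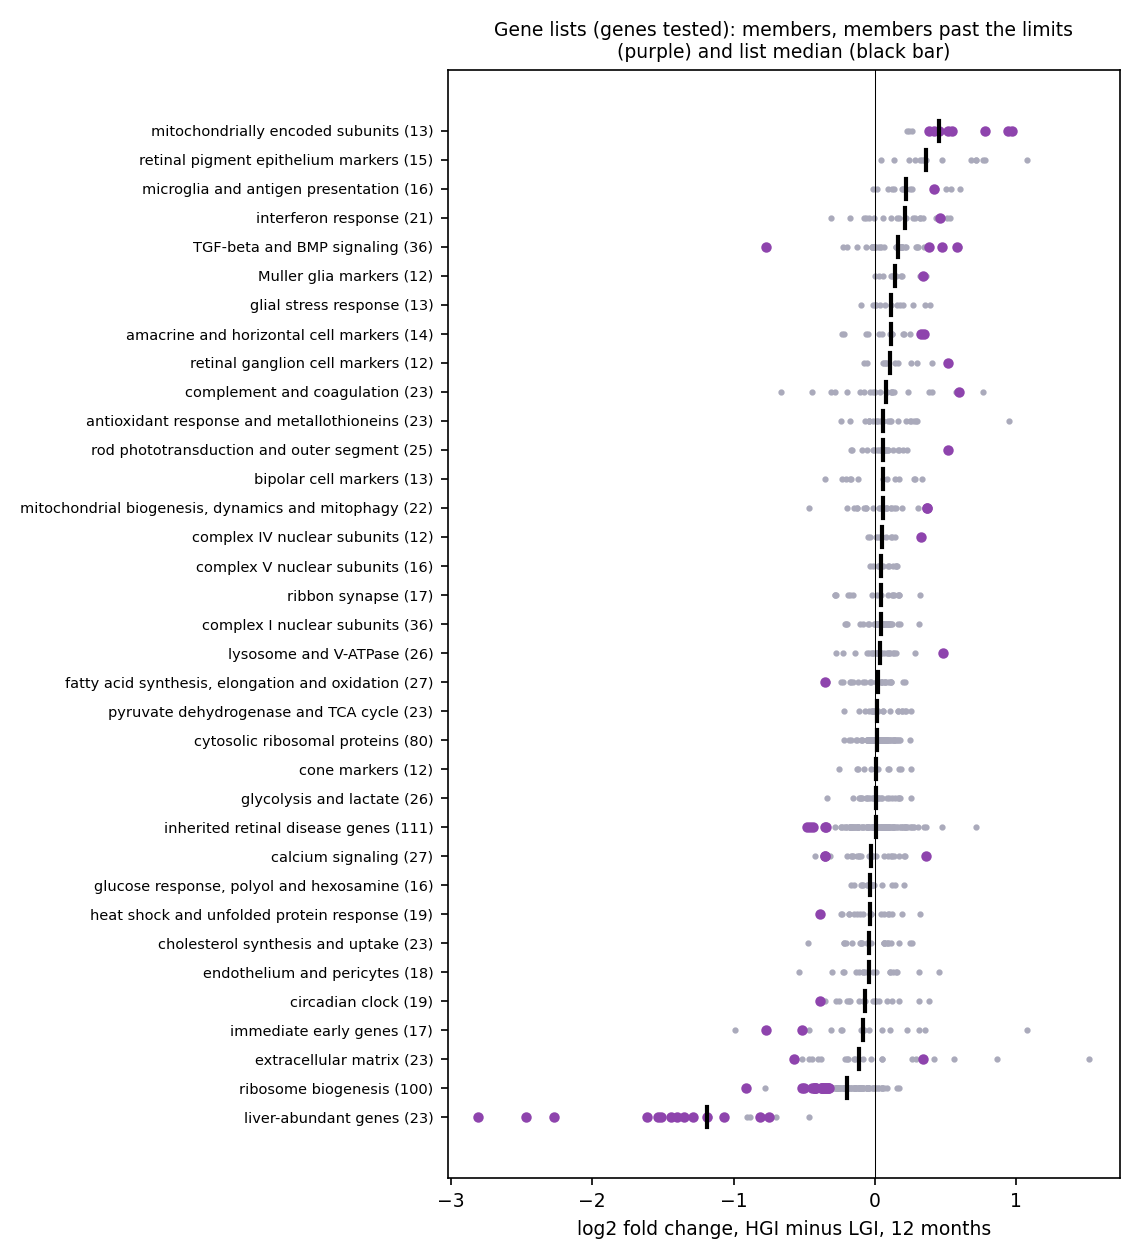
Log2 fold change (HGI minus LGI, 12 months) of every tested gene in the lists with at least 10 tested members. Purple points passed the limits and black bars are list medians. Most medians lie within 0.1 of 0, the mitochondrially encoded genes lead at 0.453, and the ribosome biogenesis and liver-abundant lists lie lowest at -0.198 and -1.19.

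Genes that liver makes in large amounts were frequent among the largest differences, nearly all of them lower in HGI. Genes whose mean CPM was at least 50 times higher over the series' 14 liver libraries than over the 16 retinas were set apart as liver-exposed. Of 129 such genes tested, 36 were lower and 1 higher past the limits, beside 1.94% lower and 2.35% higher among all genes. A gene was tested if it averaged over 1 CPM in any of the 4 retina groups. Some liver-exposed genes lay under 1 CPM in HGI and above it in LGI, so they could enter through the group where they were high. The number of lower calls may thus be partly built in for these genes. The 3 with the smallest p were Apoa2, an apolipoprotein of high-density lipoprotein, Fabp1, the liver fatty acid binding protein, and Mup20, a major urinary protein of male mice. Apoa2 was at 0.925, 0.857, 0.860 and 1.07 CPM in HGI and 2.16, 4.19, 1.49 and 2.54 CPM in LGI (2.55-fold lower, log2 -1.35, SE 0.27). Fabp1 was at 0.222, 0.584, 0.407 and 0.422 CPM in HGI and 1.76, 4.82, 1.28 and 2.31 CPM in LGI (5.53-fold lower). Mup20, 1 of a family of near-identical genes, was at 1.22, 0.506, 1.81 and 0.985 CPM in HGI and 2.40, 10.5, 3.65 and 6.75 CPM in LGI. In each gene LGI replicate 22 was the highest retina.

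A list of 31 liver-abundant genes had 23 tested in retina, of which 14 were lower and 0 higher. Its members entered by the same rule on low expression, so this count too may be partly built in and is a description only. For Serpinc1 among the 14, the unadjusted p was 0.05 or above in 6 of the 8 fits that left out a 12-month library. Alb, serum albumin, led in level with 11.7, 12.7, 17.25 and 14.6 CPM in HGI and 39.4, 91.0, 17.9 and 32.95 CPM in LGI (2.71-fold lower). Their sum was 39.2, 32.4, 40.4 and 42.2 CPM in HGI and 97.8, 249, 51.2 and 97.1 CPM in LGI, so the groups were separate. Without LGI replicate 22, 7 genes passed and the list median moved from -1.19 to -0.795, and without LGI replicate 23, 23 of 25 tested passed. The study's methods state that liver and retina libraries were sequenced on the same lane and that reads can be assigned to the wrong library there, and they describe a removal of genes from the liver data. The part of such reads in these differences was not tested. Removing the liver-exposed genes before normalization left 615 genes past the limits, 339 higher and 276 lower.

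Markers of neighboring eye tissues were measured as well. All 15 retinal pigment epithelium markers tested had log2 fold changes above 0, with a median of 0.36, and none passed. Their sums were 416, 480, 472 and 250.3 CPM in HGI and 184, 301, 559 and 324 CPM in LGI, so the ranges overlapped widely. Rpe65, the visual cycle isomerase that defines that tissue, ranged from 25.4 to 80.0 CPM in HGI and 11.5 to 49.0 CPM in LGI. Lens markers summed to 1.03 to 1.85 CPM in HGI and 1.69 to 14.8 CPM in LGI, the top value in LGI replicate 22, and 15 of 21 lens genes were not expressed above the limit. Of 18 endothelial and pericyte genes 0 passed, and red blood cell markers and cornea, iris and muscle markers each gave 0 of 4. The part of such tissue in the differences above was not tested.

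The diet differences after 12 months were also set against those of the 1-month retinas, again at limits without adjustment. After 1 month, 237 genes, or 1.57%, passed the same limits, 80 (0.531%) higher and 157 (1.04%) lower in HGI, and 404 (2.68%) had an unadjusted p below 0.05 in limma-voom. Of the 646 genes of the 12-month comparison, 77 were also among these, which is 11.9% of the 12-month and 32.5% of the 1-month genes. Of the 77, 6 had the same direction at both times, and 71 were opposite. The 2 comparisons share no library, but they do share the estimate of spread. Tested directly, the difference between the diet effects passed the limits for 1327 genes (8.81%), 863 (5.73%) of them toward higher and 464 (3.08%) toward lower in HGI at 12 months, with 0 below an adjusted p of 0.05 and the lowest at 0.293 in limma-voom. There were 1527 genes (10.1%) at an unadjusted p below 0.05 in limma-voom and 1557 in edgeR, and after adjustment edgeR called 0 and DESeq2 114. Of the 646 genes, 455 passed that test too, but the test contains the 12-month difference that selected them. A high share was thus built in, and the 455 are no separate support. The same holds for Tox2 and Ubqln2, which were named for their 12-month values. For Tox2 the log2 fold changes were 0.73 at 12 months and -0.57 at 1 month, a difference of 1.30, and for Ubqln2 they were 0.52 and -0.39, a difference of 0.90. Bcl6 was at -0.03 after 1 month, and Kif4 was lower at both times.

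Higher and lower genes differed in base composition, which the limits did not use. The longest annotated transcript had a median GC content of 43% in the 354 higher genes, 50.3% in the 292 lower genes and 48.9% in all genes tested. Genes split by GC content into 5 bins of equal size had median log2 fold changes of 0.102, 0.0388, -0.01, -0.061 and -0.103 from the poorest to the richest in G and C. The order was the opposite after 1 month, from -0.093 to 0.135. From the poorest to the richest bin, 185, 73, 50, 23 and 23 genes were higher past the limits. In the same order, 32, 50, 76, 93 and 41 were lower, so lower calls rose to 93 and then fell in the richest bin. Single libraries differed far more than the diets. The median deviation of the poorest minus that of the richest bin was -0.285, 0.449, 0.493 and -0.228 on the log2 scale in HGI replicates 17 to 20 and -0.279, -0.274, -0.432 and 0.518 in LGI replicates 21 to 24. HGI replicates 18 and 19 and LGI replicate 24, which the first principal component set apart, were the 3 libraries above 0. Group means were 0.107 and -0.117, with p = 0.486 in a two-sided exact permutation test. With the trend removed within each library, 699 genes passed, 299 higher and 400 lower, and 445 of the 646 calls were kept. Of 58 genes then past the limits at both times, 49 were opposite. Higher genes were also more abundant, with a median of 4.73 log2 CPM against 2.49 for lower genes and 4.24 for all, while median transcript lengths were 3170, 3448 and 3406 bases. Whether composition, abundance or another property of the libraries set part of the calls was not tested beyond these values.

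**Figure D5:**
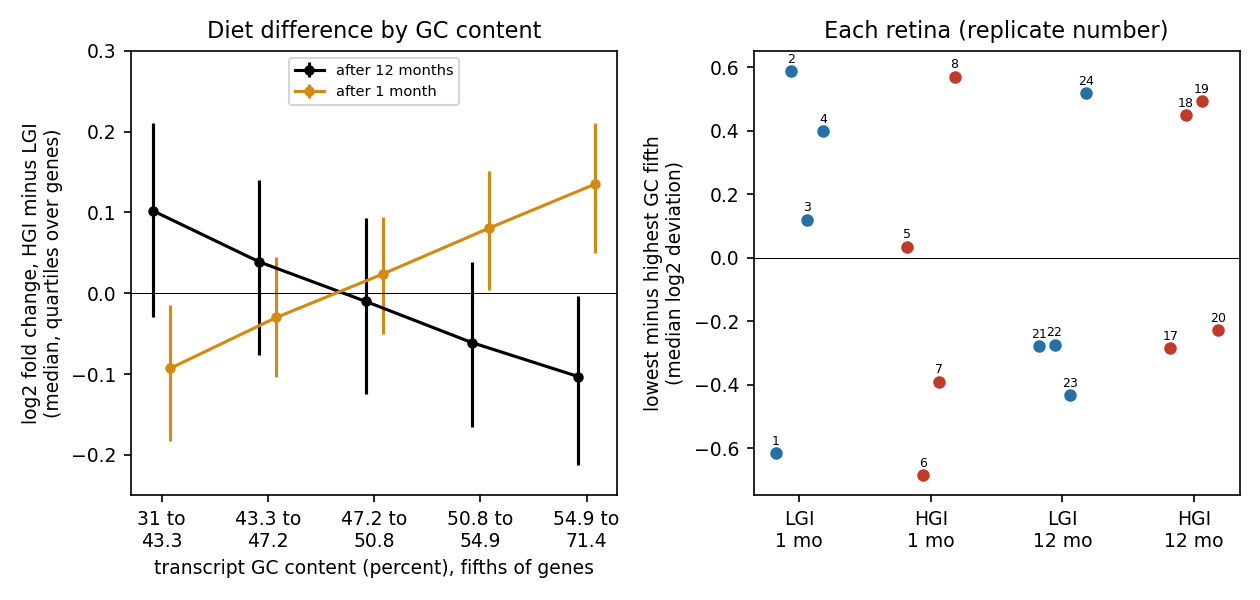
Left, median log2 fold change (HGI minus LGI) with quartiles over genes in 5 bins of transcript GC content, after 12 months (black) and 1 month (orange). Right, for each retina, the median log2 deviation of the lowest bin minus that of the highest, labelled by replicate number. The trends of the 2 times cross, and the single retinas spread from -0.685 to 0.571 in HGI and -0.615 to 0.589 in LGI after 1 month, and from -0.285 to 0.493 in HGI and -0.432 to 0.518 in LGI after 12 months.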

How the data were processed

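Whole-retina RNA was made into TruSeq Stranded mRNA libraries and sequenced as pairs of 101 bases. The values used are estimated counts of genes and transcripts, as deposited by the authors. The labels' processing notes name kallisto, edgeR, limma and GRCm39, and the methods name Ensembl annotation v104. These estimated counts were rounded to whole numbers. Symbols, biotypes and GC content came from GENCODE vM21 by gene ID, with 48845 of 49398 IDs matched, and no coordinates are given because builds differ. Genes averaging over 1 CPM in any of the 4 retina groups were kept, scaled by TMM (edgeR 4.0.16) and fitted with limma-voom 3.58.1 in R 4.3.3 over all 16 retinas. The limits, p below 0.05 and a level at least 25% above the other diet's, followed the study's methods for retina. CPM values are TMM-scaled; list sums use plain library totals. Tests were two-sided, and scripts were tested on simulated data. Labels name separate samples but do not state whether each is a separate mouse, so p-values measure the spread between these samples.

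The members and gene lists were chosen with earlier results of these data known; the ribosome biogenesis and inherited retinal disease lists were written after the fit. Named genes were the 10 higher and 10 lower with the smallest p among non-overlapping genes past the limits that were not pseudogenes, unnamed models or liver-exposed; the 5 largest folds each way at 10 CPM or more; every list member past the limits; the extremes of respiratory lists; 3 liver-exposed genes; and the 13 mitochondrial genes. Alternatives were edgeR quasi-likelihood, DESeq2 1.42.0, sva 3.50.0, library quality weights, other filters and scaling, single libraries left out, and removal of a GC trend, the last chosen after seeing the data. Authors' normalized CPM tables and liver transcript counts were not used. Values of some list members are not reported here.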

Additional observations from a re-analysis of the deposited data

Results flagged for a closer look

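Among 302 groups of 4 libraries examined for a value far from the other 3 by Dixon's criterion, 25 had one, and chance flags about 1 in 20 groups. HGI replicate 20 was apart from the other HGI retinas for Ubqln2 (101 CPM), Kantr (24.4 CPM), Cep152 (9.20 CPM), Rad52 (10.7 CPM), Col4a3 (169 CPM), Apoa1 (0.450 CPM) and mt-Co2 (1082 CPM). For the first 5 of these genes it was the HGI retina nearest to the LGI values. HGI replicate 19 was apart for Serpina3k (1.99 CPM), Cyp2e1 (2.53 CPM) and the summed heat shock and unfolded protein genes (6494 CPM). In the 8 fits that left out a 12-month library, the unadjusted p was 0.05 or above in 4 for Cyp2e1, 3 for Serpina3k and 2 for Apoa1. HGI replicate 17 was apart for Ryr3 (20.8 CPM) and the summed cornea, iris and muscle markers (26.7 CPM).

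LGI replicate 24 was apart from the other LGI retinas for Ryr2 (126 CPM), Sdhc (48.8 CPM) and Uqcrfs1 (61.8 CPM). It was also apart for 8 summed lists, 7 of them nuclear-encoded lists in which it was the lowest. These were complex I (1639 CPM), complex III (645 CPM), complex IV (982 CPM), complex V (2475 CPM), rod phototransduction (65890 CPM), cone markers (1365 CPM) and inherited retinal disease genes (77161 CPM), which overlap the rod list. The eighth was the interferon response, where it was the highest at 474 CPM. LGI replicate 22 was apart for lens markers (14.8 CPM), and LGI replicate 23 for cornea, iris and muscle markers (15.2 CPM).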

How the results depend on the processing

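No paired analysis was possible because the HGI and LGI retinas carry different replicate numbers. The 646 genes past the limits became 1654 with no limit on low expression, 2475 with library quality weights, 179 at a fold change of at least 1.5, and 342 to 1113 without 1 library; other settings gave 445 to 827. Genes at an adjusted p of 0.05 numbered 9 in DESeq2 and 947 with quality weights, and 0 in every other fit, leave-one-out fits (0 to 0) included. The difference between 12 and 1 months became 2082 with no limit on low expression and 6638 with quality weights, and 896 to 1779 without 1 library. The higher and lower calls split 311 to 446 with a surrogate variable and 299 to 400 with the GC trend removed. Of 96 named genes past the limits, 83 remained so with a surrogate variable, 74 with the GC trend removed, 84 with quality weights and 67 to 92 without 1 library; none of these reversed. Signs turned in some fits for values that did not pass the limits. Without 1 library at a time, the median ran from -0.0295 to 0.335 for interferon response, from -0.2 to 0.0193 for extracellular matrix and from -0.868 to 2.45 for cornea, iris and muscle markers. Over the same fits the log2 fold change ran from -0.554 to 0.0324 for Ndufa11, -0.138 to 0.104 for Sdhc, -0.484 to 0.0808 for Uqcr11, -0.16 to 0.00218 for Cox6b1 and -0.217 to 0.0726 for Atp5j2. With a surrogate variable, Ndufa11 was 0.0693, Uqcr11 0.146, Cox6b1 0.0223 and Atp5j2 0.112. Sdhc was -0.143 with quality weights, and Atp5j2 was 0.00195 with the GC trend removed. The causes were not tested. With 4 libraries a group, limma-voom without quality weights gave no gene an adjusted p below 0.05 at these depths, which does not show that the diets act alike.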

Other observations

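Some antioxidant genes had small differences that the fold limit left out. Sod2, the mitochondrial superoxide dismutase, measured 208, 235, 244 and 196 CPM in HGI replicates 17 to 20 and 194, 178, 177 and 188 CPM in LGI replicates 21 to 24 (1.20-fold, log2 0.26, SE 0.09). Prdx3, the mitochondrial peroxiredoxin, was 1.17-fold higher, and Nfe2l2, the transcription factor NRF2, 1.19-fold. In all 3 each HGI retina lay above each LGI retina, as in 2.32% of all genes tested. They were the 3 of 23 genes in the antioxidant and metallothionein list at an unadjusted p below 0.05 in limma-voom, and 0 passed the limits. Of all genes tested, 7.75% had such a p. In the list, 16 log2 fold changes were above 0 and 7 below. They were singled out after their values were seen.

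In all, 53 genes differed at least 2-fold past the limits, some of them named in the comparisons above, 7 higher and 46 lower, of which 30 were liver-exposed and 15 were pseudogenes or unnamed models. The other 8, chosen here after their values were seen, included Depp1, a target of FOXO factors, at 0.259, 0.311, 0.272 and 0.647 CPM in HGI and 1.22, 1.27, 1.62 and 1.62 CPM in LGI (3.87-fold lower). Serpine3 (3.04-fold), Rab43 (2.98-fold), Col7a1 (2.12-fold) and Hspg2, the proteoglycan perlecan (2.08-fold), were lower as well, with LGI means under 10 CPM, and the unadjusted p was 0.05 or above for Col7a1 in 5 and for Hspg2 in 6 of the 8 fits that left out a 12-month library. The higher ones besides Tcte3 were Gt(ROSA)26Sor, at 2.08-fold, and Sap18b, which read near 0 in LGI replicates 22 and 24 and 6.88 to 15.02 CPM in HGI and has a close paralog with which its counts can be split.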
